A study of Homo sapiens with 34 samples.

Results

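The promoter sites described here were the regions bound by both BMAL1 and CLOCK in 6AN-treated cells that lay within 1000 bp of an annotated transcription start. They were taken from the list of shared BMAL1/CLOCK sites under 6AN by their distance to the nearest start, which gave 223 of 439 sites (50.8%). The other 216 sites, farther from a start, are called distal. Each site was a window of 1000 bp around a peak, on the hg38 human genome. Because a site entered the list through its BMAL1 and CLOCK peaks in 6AN, the BMAL1 and CLOCK signals described below chose the members and carry no test. The histone marks, the input, the RNA and the sequence were not used to choose them.

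The cells were U2OS, established from a human osteosarcoma, carrying the *Bmal1*:*luc* reporter, in which *Bmal1* promoter sequence drives luciferase. For ChIP-seq, cells received 5 mM 6AN (6-aminonicotinamide, an inhibitor of the pentose phosphate pathway) or the vehicle DMSO (control) for 24 hr, with 1 library per condition for BMAL1, CLOCK, H3K9ac, H3K4me3 and input. For RNA-seq, the paper states that the cells were synchronized with dexamethasone. RNA-seq covered the same 6AN dose and DMSO at 12 time points, labelled CT00 to CT44 in steps of 4 hr, with 1 library each. A change between ChIP libraries therefore has no replicate check, and the intervals given for tag ratios cover counting error only. The intervals given for medians over sites take the sites of 1 library pair as the sample and hold no variation between experiments.

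BMAL1 and CLOCK are bHLH-PAS proteins that pair and bind E-boxes, with CACGTG as the classical form, and they activate the genes of their own repressors PER, CRY and REV-ERB. H3K4me3 marks active promoters, and H3K9ac is an acetylation found on active promoters and enhancers. PER, CRY, DBP, TEF, HLF, REV-ERB (NR1D1 and NR1D2) and DEC (BHLHE40 and BHLHE41) genes are the best known E-box targets of the pair.

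In ChIP-seq, library totals ran from 1.41 (H3K9ac, control) to 33.3 (input, control), in units of 1000000 tags. Signal is given as tags in 1000 bp scaled to 10000000 tags per library, so that 1 tag was worth 7.09 units in the H3K9ac control library and 2.13 in its 6AN counterpart. In RNA-seq, the 6AN library of CT08 stood apart in *RN7SK* (2639 FPKM, 116 to 239 in the other 6AN libraries) and *RNA28S5* (207 FPKM, 10.8 to 20.7 in the others). Of 9 osteoblast lineage markers, *SP7*, *COL1A2* and *IBSP* stayed at or below 0.175 FPKM in every library and the other 6 were present. *SPARC* ranged from 290 to 368 FPKM in control and from 87.2 to 185 in 6AN, and *COL1A1* from 84.5 to 170 and from 13.3 to 73.8, both with no overlap, while *RUNX2* ranged from 11.9 to 17.6 and from 11.6 to 16.5. Hepatocyte and leukocyte markers stayed at or below 0.526 FPKM and endothelial ones at or below 1.03. Of the epithelial markers, *EPCAM* and *CDH1* stayed at or below 1.69 FPKM, and the keratin gene *KRT18* ranged from 206 to 329 in control and from 107 to 169 in 6AN. The part of these marker differences in the RNA values below was not tested.

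The sites sat close to the start. Their median distance was -40 bp (quartiles -126 and 35), 160 lay within 150 bp, and 148 were upstream. The authors' annotation placed 200 in a promoter, 11 in a 5′ UTR, 4 in an intron, 4 at a transcript end, 2 in an exon and 2 in a non-coding transcript. They were assigned to 221 genes, with 203 sites at protein-coding genes, and *TEF* and *ALDH3B1* had 2 sites each. Just inside the distance limit were *LRFN4* at -858 bp, *PLEKHG2* at -792 bp and *LOC283575* at -763 bp, with CLOCK signals in 6AN of 70.3, 61.5 and 58.2. Just outside it were sites of *RNA5-8S5* at -1055 bp, *HES1* at -1080 bp and *HAGHL* at 1104 bp, with 101, 70.3 and 33.0.

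The sequences below are stretches of RefSeq promoters (GRCh38.p14), each written 5′ to 3′ on the strand of the gene and ending at or before its start. They are shown because CACGTG or a close form of it lay near the centre of most sites whose promoter could be read. Capitals mark CACGTG on either strand and the variants compared in the paragraphs below, in which 1 base of it differs.
LAMP1, chr13:113297050-113297115, plus strand: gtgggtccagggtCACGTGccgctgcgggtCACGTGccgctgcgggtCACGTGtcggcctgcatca
RAD9A, chr11:67391843-67391908, plus strand: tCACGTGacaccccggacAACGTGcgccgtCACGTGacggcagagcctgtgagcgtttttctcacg
AGAP11 site, promoter of the divergent ADIRF-AS1, chr10:86971378-86971443, minus strand: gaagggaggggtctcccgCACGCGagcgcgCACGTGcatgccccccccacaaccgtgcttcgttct
NR1D2, chr3:23945936-23946001, plus strand: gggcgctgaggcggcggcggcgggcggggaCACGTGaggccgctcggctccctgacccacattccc
BHLHE40, chr3:4979187-4979227, plus strand: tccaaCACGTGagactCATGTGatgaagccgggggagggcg
BHLHE41, chr12:26125050-26125115, minus strand: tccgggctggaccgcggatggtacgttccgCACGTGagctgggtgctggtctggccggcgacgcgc
TEF, site at -20 bp, chr22:41367230-41367295, plus strand: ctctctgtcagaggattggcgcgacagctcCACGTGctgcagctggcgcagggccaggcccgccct
RRAGC, chr1:38859849-38859914, minus strand: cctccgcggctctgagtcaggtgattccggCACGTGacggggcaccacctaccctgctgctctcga
FNIP1, chr5:131797076-131797141, minus strand: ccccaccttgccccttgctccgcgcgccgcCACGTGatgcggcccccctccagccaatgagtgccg
MTSS1L, chr16:70686062-70686127, minus strand: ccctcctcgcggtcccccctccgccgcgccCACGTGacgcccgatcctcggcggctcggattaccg
LDHA, chr11:18394446-18394511, plus strand: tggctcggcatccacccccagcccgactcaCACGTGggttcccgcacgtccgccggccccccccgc
PER2, chr2:238288772-238288837, minus strand: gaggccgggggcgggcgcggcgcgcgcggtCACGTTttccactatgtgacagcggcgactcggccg
CRY2, chr11:45847257-45847322, plus strand: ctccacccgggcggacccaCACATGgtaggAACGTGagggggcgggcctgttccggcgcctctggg
NR1D1, chr17:40100687-40100752, minus strand: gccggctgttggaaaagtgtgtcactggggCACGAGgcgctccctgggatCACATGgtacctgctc
TXNIP, chr1:145996632-145996697, minus strand: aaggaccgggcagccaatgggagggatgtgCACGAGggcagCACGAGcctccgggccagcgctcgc

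The *LAMP1* promoter held 3 CACGTG within 66 bases, the middle of which lay 2 bp from the centre of the site. The *RAD9A* promoter held 2 CACGTG and 1 variant. In the *PER2* stretch the form was CACGTT, and in the *CRY2* stretch the same form on the other strand lay 1 bp from the centre of the site. *NR1D1* and *TXNIP* showed only other variants here.

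A RefSeq promoter window of 300 bases, from 250 before to 50 after a start, held the centre of 146 of the 223 sites. Of these windows, 86 held CACGTG (58.9%), against 2526 of 34943 windows of the same length over all promoters (7.23%). The member windows were richer in G and C, with a median of 70.0% against 58.7%. Among the 7077 windows of all promoters at or above 70.0%, 9.67% held CACGTG. The part of G and C content in the share of member windows with CACGTG was not tested. The E-boxes were concentrated at the middle of the sites, as the plot of E-boxes by distance shows. Of 139 CACGTG found within 500 bp of a centre, 94 lay less than 50 bp from it, which was 6.45 per kb of sequence read. From 50 to 100 bp there were 2.04 per kb, from 150 to 200 bp 0.354 per kb, and over all promoter windows 0.267 per kb.

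**Figure D1:**
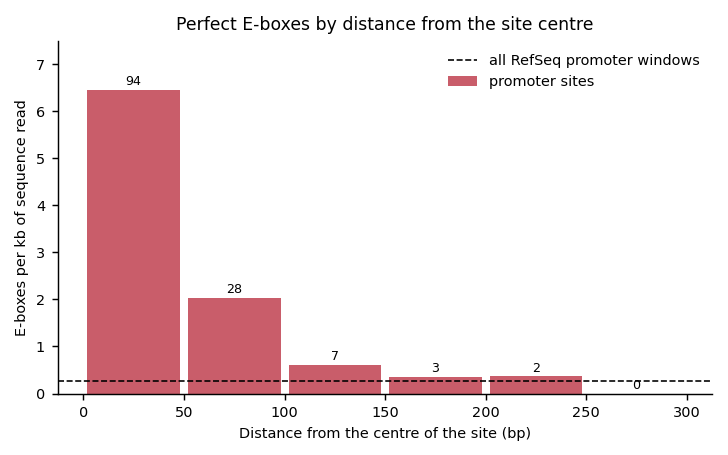
Number of CACGTG per kb of RefSeq promoter sequence read (y axis) by distance from the centre of the promoter sites (x axis, bp), with the number found above each bar and the rate over all promoter windows as a dashed line. The first bar, with 94 E-boxes, reaches 6.45 per kb and the rate drops to 0.354 per kb at 150 to 200 bp.

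Other letters were compared in the same windows, on both strands. CACGCG was in 40.4% of the member windows against 11.4% of all promoters, CACGAG in 13.7% against 6.79%, CACGTT in 11.0% against 5.35%, and CATGTG in 10.3% against 11.1%. The G- and C-rich SP motif GGGCGG was in 80.8% against 44.9%, and the ETS motif CCGGAAG in 20.5% against 10.2%. The NRF2-type letters TGACNNNGC were in 30.1% against 13.3%, the CRE core TGACG in 48.6% against 24.5%, the whole CRE TGACGTCA, which contains that core, in 5.48% against 1.84%, and the NRF1 motif in 4.79% against 1.23%. The CCAAT box (37.0% against 34.6%), the AP-1 motif TGACTCA (6.85% against 4.96%) and the D-box TTATGTAA (2.05% against 0.89%) made up the rest. SP and CRE core letters were also more frequent than in all promoters, and the part of the member windows' higher G and C content in those values was not tested.

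CACGTG was in 44 of 67 windows (65.7%) at the sites with CLOCK signal in 6AN at or above the members' median and in 42 of 79 (53.2%) at the others. It was in 25 of 33 windows of sites that were also in the control list. Fewer sites at or above the median (67) than below it (79) had a window, and only 33 of the 55 sites in both lists did. The 77 sites without a window therefore leaned to stronger CLOCK signal, and they are not in these counts. A CACGTG and a variant spaced by 6 or 7 bases, the tandem arrangement known from clock genes, occurred in 4 of 146 windows against 0.103% of all promoters. These 4 windows were at *AGAP11*, *RAD9A*, *TSPAN4* and *ALDH3B1* (+16 bp), and all 4 sites were in both lists. No window held 2 CACGTG with that spacing.

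Signal was also compared between the sites with CACGTG in their window and the 60 sites without it there. Sequence outside the window was not used for this split, so some of the 60 may hold CACGTG nearby. Median CLOCK signal in 6AN was 54.9 with CACGTG and 43.4 without, and the median log2 change of CLOCK was 1.04 and 0.97. Median BMAL1 signal in 6AN was 34.8 in both sets.

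Only 55 promoter sites (24.7%, against 23.1% of distal sites) had a site of the control list within 200 bp, and 168 were in the 6AN list alone. Most of the latter still had a peak of one partner in control. Of all 223 sites, 133 had a BMAL1 peak in control (59.6%, against 38.4% of distal sites) and 80 a CLOCK peak (35.9%, against 30.1%). In control, 72 had BMAL1 without CLOCK, 19 had CLOCK without BMAL1, and 71 had neither, for which distal sites were not counted. The control list in turn held 83 promoter sites, of which 28 had no 6AN site within 200 bp.

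At the promoter sites, CLOCK had a median of 27 in control and 51.6 in 6AN, and BMAL1 of 28.1 and 35.5. CLOCK was higher in 6AN at 217 of 223 sites, where 98.2% of all shared sites were, and at least 2-fold higher at 117, where 57.4% of all shared sites were. BMAL1 was higher at 179 sites, against 83.1% of all, and at least 2-fold higher at 21, against 13.4%. As a log2 change, the median was 1.04 for CLOCK and 0.34 for BMAL1. Since sites were selected by their peaks in 6AN, these values describe the selection. CLOCK signal was above BMAL1 signal at 189 sites in 6AN (84.8%, against 90.3% of distal sites) and at 109 in control (48.9%, against 61.1%). All members needed a peak of both partners in 6AN.

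The input moved too. Its median was 8.87 in control and 11.9 in 6AN. As a log2 change the median was 0.41. It was higher in 6AN at 179 of the 223 promoter sites (80.3%), against 80.2% of all shared sites, and at least 2-fold higher at 17 (7.62%), against 6.61%. After subtraction of the input's log2 change at the same site, the median change was 0.59 for CLOCK and -0.05 for BMAL1. The median change of BMAL1 was no larger than that of the input, and the part of the input in these values was not tested. The highest input in 6AN was at *TEF* (-525 bp) and *HPS4*, a subunit of the BLOC-3 complex of lysosome-related organelles, both at 30.6. It was followed by *ZFAT* (29.5), *CPSF1* (29) and *FKBP5* (26.9). BMAL1 and CLOCK were both at least 2 times the input at 196 of the 223 sites in 6AN (87.9%, against 81.5% of distal sites).

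**Figure D2:**
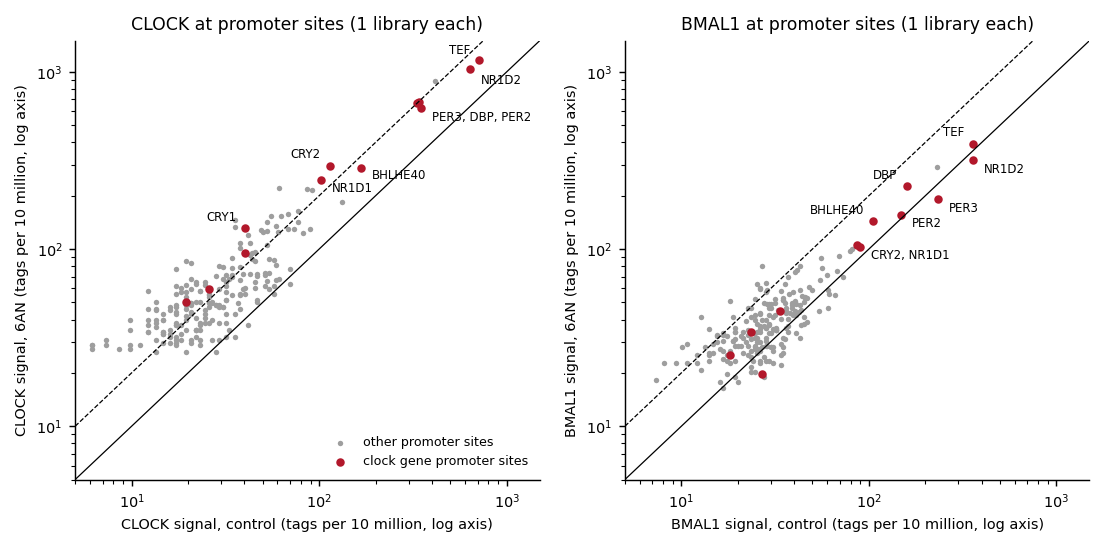
CLOCK (left) and BMAL1 (right) signal at the 223 promoter sites, control on the x axis and 6AN on the y axis, in tags per 10000000 on log axes, 1 library each, with clock gene sites in red, a solid line of equality and a dashed line of 2-fold. CLOCK lies above equality at 217 sites, while the clock gene sites lie nearer to equality in BMAL1.

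Clock genes held the strongest promoter sites. Of the 20 genes on the clock list, 11 had a promoter site, and their 12 sites included 8 of the 10 with the highest CLOCK signal in 6AN. Those 10 sites took 31.8% of the CLOCK signal summed over all 223. The highest was *TEF* (-525 bp), a PAR bZIP factor, with CLOCK at 711 in control and 1172 in 6AN and BMAL1 at 361 and 394. *NR1D2*, which encodes the repressor REV-ERBβ, had CLOCK at 641 and 1037 and BMAL1 at 358 and 317.

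*PER3* had CLOCK at 341 and 674 and BMAL1 at 233 and 192. *DBP*, a PAR bZIP activator, had CLOCK at 333 and 667 and BMAL1 at 159 and 227. *PER2* had CLOCK at 351 and 626 and BMAL1 at 148 and 156. At these 3 sites CLOCK was near 2-fold higher in 6AN, while BMAL1 was lower at *PER3* and higher at *DBP* and *PER2*. *CRY2* (CLOCK 114 and 296), *BHLHE40* (167 and 286) and *NR1D1* (103 and 246), a repressor, a bHLH repressor and REV-ERBα, came next. Outside the clock list, the top 10 for CLOCK held *AGAP11* (CLOCK 414 and 891), and the top 10 for BMAL1 held *RALGDS*, a Ral exchange factor (BMAL1 81.8 and 100.04).

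The remaining clock gene sites were weaker. *CRY1* had CLOCK at 40.5 in control and 132 in 6AN, *HLF* at 40.5 and 94.5, *BHLHE41* at 25.7 and 59.3, and the *TEF* site at -20 bp at 19.6 and 50.5. CLOCK was higher in 6AN at all 12 clock gene sites, a value that the choice of sites by their 6AN peaks favours. BMAL1 was higher at 9 of the 12. The *CRY1*, *BHLHE41* and *TEF* (-20 bp) sites were in the 6AN list alone.

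**Figure D3:**
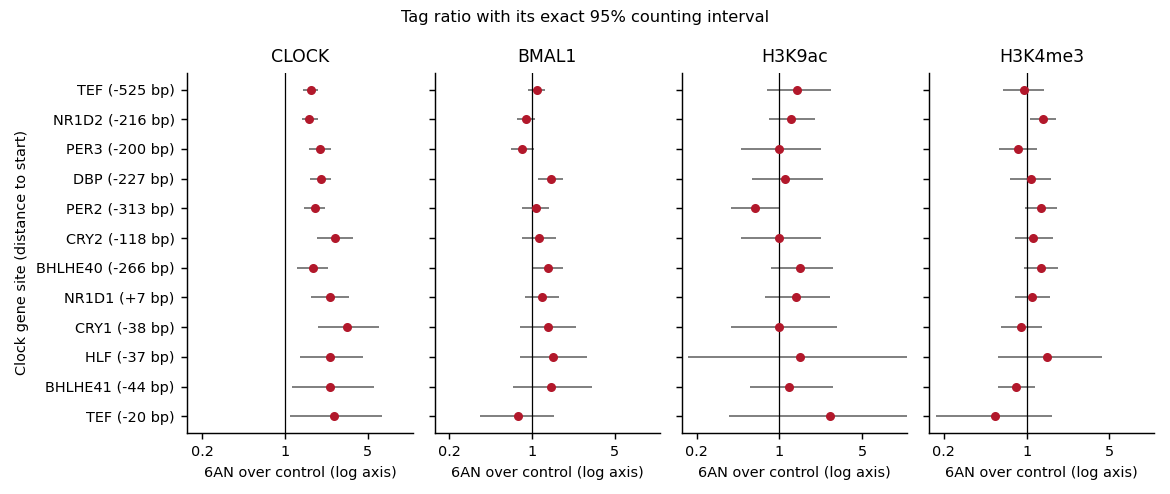
Ratio of tags in 6AN over control, scaled by library totals, on log x axes, for CLOCK, BMAL1, H3K9ac and H3K4me3 at the 12 clock gene sites, with exact 95% counting intervals as lines. The CLOCK and BMAL1 peaks in 6AN chose the sites, so their ratios carry no test. CLOCK lies to the right of 1 at all 12 sites, and the H3K9ac intervals of HLF and TEF (-20 bp) run past the axis, to 70.9 and 118.

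The 5 largest CLOCK changes were at sites with few control tags. *ALDH3B1* (-41 bp), an aldehyde dehydrogenase gene, had 12.3 in control and 58.2 in 6AN, from 5 and 26.5 tags. *GNPDA1*, a glucosamine-6-phosphate deaminase, had 17.2 and 76.9, and *CLUAP1*, a ciliary transport gene, had 19.6 and 85.7. *NSFL1C* and *LOC101928358* both had 6.13 and 28.6. These were picked as extremes, and their control libraries held at most 8 tags each.

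At 6 sites CLOCK was not higher in 6AN. *SLC39A13*, a zinc transporter gene, had 41.7 in control and 37.4 in 6AN, *CCDC9* 35.6 and 31.9, and *RN7SK*, the gene of 7SK RNA, 69.9 and 63.7. *OSBP2* had 28.2 and 26.4, *SLC25A13* (a mitochondrial aspartate/glutamate carrier) 57.6 and 56.04, and *KPNA2* (importin α1) 31.87 and 31.86. *RN7SK* is one of several near-identical copies in the genome, so its signal is uncertain.

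Histone marks at the promoter sites differed little between the conditions. H3K9ac had a median of 128 in control and 130 in 6AN. Its log2 change had a median of 0.09 (0.02 to 0.13), and it was higher in 6AN at 127 of 223 sites, where 63.6% of all shared sites were. At the 178 sites with at least 10 tags in each library that median was 0.02, and after subtraction of the input's log2 change it was -0.32. H3K4me3 had a median of 283 and 272. Its log2 change had a median of -0.08 (-0.11 to -0.04), and it was higher at 76 sites, against 44% of all. At distal sites the medians of the log2 change were 0.29 for H3K9ac and 0.06 for H3K4me3, at far lower levels in 6AN (42.0 and 15.9). H3K9ac was at least 2-fold higher at 10 of the 223 promoter sites (4.48%), against 13.4% of all shared sites, and at least 2-fold lower at 3, against 2.73%. H3K4me3 was at least 2-fold higher at 3 promoter sites (1.35%), against 9.11% of all, and lower at 1, against 5.01%.

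By counting error, the tag ratio interval lay above 1 at 5 sites and below 1 at 5 for H3K9ac, and above 1 at 6 and below 1 at 16 for H3K4me3. The same intervals were not counted over all shared sites. Levels were kept between conditions, with a Spearman correlation across the 223 sites of 0.95 for H3K4me3, 0.87 for H3K9ac and 0.78 for CLOCK. The change of CLOCK and that of H3K9ac had a correlation of 0.06. These correlations describe sites that share the same libraries.

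**Figure D4:**
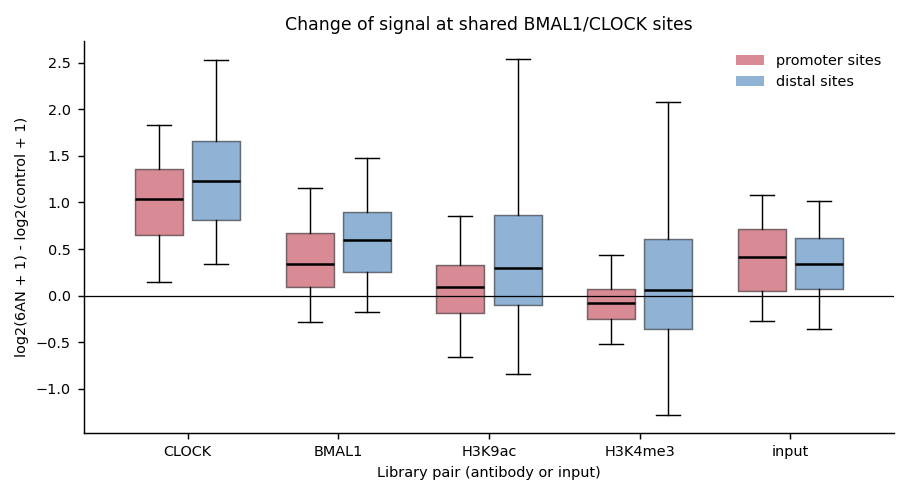
Log2 change of signal, 6AN over control with 1 added to each (y axis), for the 4 antibodies and the input at promoter (red) and distal (blue) sites. Boxes span the quartiles around the median, and whiskers span the central 90% of sites. Promoter medians are 1.04 for CLOCK, 0.34 for BMAL1, 0.09 for H3K9ac, -0.08 for H3K4me3 and 0.41 for the input.

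Sites were named for their marks as the 5 extremes on each side among those with at least 20 tags in both libraries, which were 208 sites for H3K4me3 and 99 for H3K9ac. The largest H3K4me3 change was at *TXNIP*, which encodes a thioredoxin-binding arrestin that limits glucose uptake, with 136 in control and 226 in 6AN (tag ratio 1.17 to 2.45). *GGA2* (159 and 224), *GTF3A* (112 and 155), *BAG5* (256 and 349.96) and *NR1D2* (308 and 417) followed. *TXNIP* also had H3K9ac of 63.9 in control and 136 in 6AN, from 9 and 64 tags, which left it under the tag minimum for that mark. Its CLOCK signal was 38.0 and 56.04.

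The 5 lowest H3K4me3 changes began with *RN7SK* (176 and 71.1). *GNAI1*, a G protein α subunit, had 345 and 221, and *ITPR1*, an IP3 receptor, had 445 and 287. *TMEM248* had 507 and 328, and *NME1*, a nucleoside diphosphate kinase, had 211 and 142. All 5 tag ratio intervals lay below 1, though the sites were chosen as extremes of 208.

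For H3K9ac, the 5 highest changes were at *SLC30A1* (a zinc exporter, 149 and 220), *HPS4* (284 and 418), *MTHFD1L* (a mitochondrial folate enzyme, 188 and 276), *TRIB1* (a pseudokinase, 156 and 229) and *GTF3C2* (a TFIIIC subunit, 156 and 222). The 5 lowest were *PLBD2* (167 and 70.2), *PEPD* (a prolidase, 142 and 64.9), *IFRD2* (209 and 109), *GTF3C5* (another TFIIIC subunit, 177 and 98.9) and *PER2* (202 and 123). The *PER2* interval was 0.389 to 1.01, and the intervals of the other 4 sites lay below 1. The H3K9ac control library was the shallowest of the ChIP libraries.

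Across the clock gene sites the marks were at modest levels. Median H3K4me3 was 164 in control and 148 in 6AN, and median H3K9ac 79.8 and 85.1. H3K9ac was higher in 6AN at 9 of 12 and H3K4me3 at 7 of 12, but of the 24 tag ratio intervals only that of H3K4me3 at *NR1D2* (1.06 to 1.76) excluded 1.

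Other pathway lists held 0 to 4 genes with a promoter site. As background, 209 of the 13979 genes with a mean of at least 1 FPKM had one (1.5%). The list genes were not filtered by FPKM, so their shares have another base. The lists were also chosen with earlier results of these data known, and these shares carry no test. The lysosome and autophagy list, many of whose genes carry CACGTG-like elements bound by TFEB, had 4 of 26 (15.4%), namely *LAMP1* (a lysosomal membrane protein), *RRAGC* (a Rag GTPase), *FLCN* and *FNIP1* (the folliculin complex that acts on Rag GTPases). CLOCK at *RRAGC* was 52.7 in control and 143 in 6AN, at *LAMP1* 89.5 and 130, at *FLCN* 58.8 and 81.3, and at *FNIP1* 31.9 and 71.4. *FNIP1* also had H3K9ac of 95.8 and 187 (tag ratio 1.07 to 3.59). Of these 4, *LAMP1* and *RRAGC* were also in the control list.

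*OSGIN1*, an oxidative stress-induced growth inhibitor, was the only 1 of 17 NRF2 target genes with a promoter site, with CLOCK at 77.2 and 165 and BMAL1 at 44.9 and 41.2. *DDIT3*, the stress factor CHOP, was the only 1 of 12 integrated stress response genes, with CLOCK at 23.3 and 58.2. *IER3* (68.7 and 158) was 1 of 12 immediate early genes, *HES1* (31.9 and 51.6) 1 of 17 genes of other CACGTG-binding families, and *NOP56* (14.7 and 29.7) 1 of 15 ribosome biogenesis genes. Among 12 p53 target genes, 0 had a promoter site.

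All 221 genes with a promoter site were matched to an RNA locus, and 209 had a mean of at least 1 FPKM over the 24 libraries. Because the control and 6AN tables were normalized separately, levels are set side by side without a test. In these bulk libraries, a change in the share of cells that express a gene and a change in RNA per cell cannot be told apart. The median log2 ratio of mean FPKM + 1, 6AN over control, was 0.07 over the 209 genes (quartiles -0.15 and 0.37) and -0.04 over all 13979 genes that passed (-0.28 and 0.18). The ratio was above 1 for 118 genes (56.5%), against 45% of all genes. The 20 highest genes took 43.0% to 47.5% of the summed FPKM in control and 48.5% to 52.9% in 6AN, and the part of this difference in the ratios was not tested.

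A mean at least 1.5-fold higher in 6AN was found for 27 of the 209 (12.9%), against 5.87% of all, and at least 1.5-fold lower for 6 (2.87%), against 9.69%. Without CT08 these counts were 23 and 6, with no count over all genes. In 6AN, FPKM was higher at all 12 time points for 52 genes (24.9%), against 13.0% of all, and lower at all 12 for 37 (17.7%), against 20.4%. The members were also more abundant than genes in general, with a median mean FPKM of 21.3 against 11.5. The change of CLOCK at a site and the log2 ratio of its gene had a Spearman correlation of 0.06 across the 209 genes, and for H3K9ac it was 0.16. Both describe genes measured in the same libraries.

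*TXNIP* had the highest ratio, at 10.7 to 45.8 FPKM in control (median 20.8) and 82.3 to 104 in 6AN (median 93.0), a log2 ratio of 1.92 with no overlap. *OSGIN1* ranged from 9.02 to 13.3 (median 11.7) and from 18.4 to 36.3 (median 25.1), also with no overlap. *DDIT3* ranged from 15.4 to 31.4 in control (median 24.4) and from 52.7 to 122 in 6AN (median 82.9), but its locus overlaps another one. The other 3 of the 6 highest ratios had uneven libraries. *CPSF1*, a locus that includes *MIR939*, ranged from 69.1 to 296 and from 76.5 to 1013. *RNA28S5* and *RN7SK* had log2 ratios of 1.26 and 1.10 that became 0.27 and -0.10 without CT08. Both are repeated sequences.

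*BHLHE41*, the repressor DEC2, had the lowest ratio, with 22.1 to 32.9 FPKM in control (median 29.7) and 4.42 to 9.17 in 6AN (median 6.13), a log2 ratio of -1.99. Its paralog *BHLHE40*, DEC1, went the other way, with 40.9 to 75.7 (median 53.4) and 82.3 to 111 (median 91.7), in a locus that overlaps another. *NREP* ranged from 22.2 to 37.3 and from 9.74 to 17.3. *LDHA*, the lactate dehydrogenase of glycolysis, ranged from 305 to 435 and from 165 to 227. *LMNA* (145 to 221 and 91.6 to 154), *EXTL2* (13.5 to 18.4 and 8.4 to 12.9) and *NOP56* (80.6 to 813 and 58.8 to 345, in a locus with *MIR1292* and *SNORD86*) completed the 6 lowest. Of these, *BHLHE41*, *NREP*, *LDHA* and *EXTL2* did not overlap between conditions, and the share of all genes without overlap was not counted.

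Of the 10 clock genes with a promoter site that passed the filter, 9 had a higher mean in 6AN, and the median of their log2 ratios was 0.42. *HLF* had a mean of 0.253 FPKM in control and 0.388 in 6AN and was left out. *CRY2* ranged from 4.56 to 7.41 in control (median 5.42) and from 5.75 to 12.5 in 6AN (median 9.13). *NR1D1* ranged from 9.43 to 24.4 (median 16.2) and from 15.8 to 43.6 (median 21.2), in a locus that overlaps another. *PER2* ranged from 1.48 to 3.52 (median 2.94) and from 2.83 to 7.15 (median 3.85). The ranges of these 3 genes overlapped between conditions.

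The 4 lysosome and autophagy genes with a promoter site were each higher in 6AN at all 12 time points. So were 24.9% of the 209 genes with a promoter site and 13.0% of all genes. The RNA of the list's genes without a promoter site was not compared. *LAMP1* ranged from 188 to 236 FPKM in control (median 215) and from 224 to 322 in 6AN (median 264). *FLCN* ranged from 20.2 to 28.3 and from 32.8 to 42.1, *FNIP1* from 10.5 to 14.5 and from 15.8 to 19.5, and *RRAGC* from 16.7 to 22.9 and from 25.4 to 33.4, the last 3 with no overlap. The share of all genes without overlap was not counted. *IER3* (median 106 and 85.8) and *HES1* (47.1 and 37.3) had lower medians in 6AN, with ranges that overlapped. CLOCK signal at the sites of *IER3* and *HES1* was higher in 6AN, and its relation to their RNA was not tested.

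Within each table, a 24 hr rhythm was tested by limma's F test on log2(FPKM + 1). With Benjamini-Hochberg adjustment by limma, 0 of 13979 genes reached 0.05 in either condition, where 715 genes in control and 664 in 6AN had an unadjusted p of at most 0.05. At an unadjusted p of at most 0.01, 7 of the 209 genes were called in control (3.35%), against 1.05% of all genes, and 12 in 6AN (5.74%), against 1.19%. These calls rest on unadjusted limma p-values, and with a linear trend over time in the fit they were 13 and 18. The fit with a trend was counted for the 209 genes only, so 13 and 18 have no share of all genes beside them. Of the genes called without the trend, 5 were called in both conditions, and all 5 were clock genes.

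These 5 were *NR1D1*, *NR1D2*, *TEF*, *PER3* and *CRY1*, the last of which the paper, with another method, did not list as rhythmic in both. In control their fitted peaks fell at CT 18.7, 21.5, 23.6, 0.2 and 3.1 hr, and in 6AN at 4.7, 7.2, 8.9, 11.5 and 14.4 hr. The order of the 5 peaks was the same in both tables, and the offset between tables was not tested. The log2 amplitude was 0.39 in control and 0.56 in 6AN for *PER3*, 0.23 and 0.43 for *CRY1*, 0.43 and 0.58 for *NR1D1*, 0.44 and 0.59 for *TEF*, and 0.36 in both for *NR1D2*.

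*DBP*, *CRY2* and *PER2* were called in 6AN only, with unadjusted limma p of 0.000239, 0.00463 and 0.00352 there and 0.125, 0.141 and 0.151 in control. The difference between conditions was not tested, and the paper, with another method, called *DBP* rhythmic in both. *BHLHE40* and *BHLHE41* were called in neither, with unadjusted limma p of 0.529 and 0.523 in control and 0.102 and 0.0729 in 6AN. The other calls included *RAD9A* (a checkpoint clamp subunit) and *CCDC88A* in control, and *MTSS1L*, *CCDC85B* and *GGA2* in 6AN.

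Of the 7 clock genes that passed the filter and had no promoter site, *ARNTL*, which encodes BMAL1, was called in both conditions and *NFIL3*, a repressor of D-box genes, in 6AN. Their mean FPKM was higher in 6AN for 3 of 7. *PER1* had a distal site only, and its mean was 15.3 FPKM in control and 31.4 in 6AN.

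**Figure D5:**
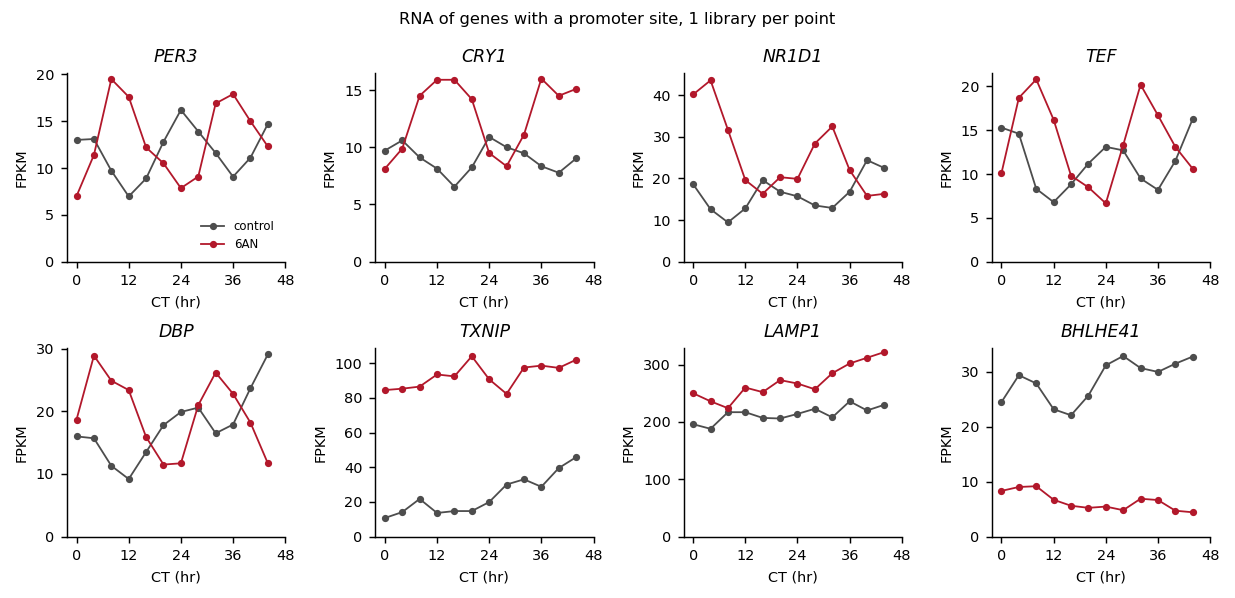
FPKM (y axis, from 0) by CT label in hr (x axis) for 8 genes with a promoter site, control in grey and 6AN in red, 1 library per point, from separately normalized tables. PER3, CRY1, NR1D1 and TEF show waves with peaks at different CT in the 2 conditions, and BHLHE41 stays between 4.42 and 9.17 in 6AN, below its control values.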

How the data were processed

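The authors deposited, for ChIP-seq, a signal per library and shared BMAL1/CLOCK site, which is the tag count of 1000 bp by HOMER and scaled to 10000000 tags, together with hg38 annotations. For RNA-seq, the authors deposited FPKM per locus, with control and 6AN normalized separately. The submitters' processing notes name Bowtie, Bowtie2, TopHat, Cufflinks and HOMER. Peak names in the merged peak list served only to tell which antibodies had a peak. The deposited HOMER peak scores of the sites were not used. The number of per-sample columns left out was 0.

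Members were the sites within 1000 bp of a start. The members and gene lists were chosen with earlier results of these data known. Signal changes were log2 of 6AN over control after adding 1. Sites of the 2 lists were joined within 200 bp. Tag ratios used tags recovered from the scaled signal, rounded to whole tags, with exact (Clopper-Pearson) 95% intervals. Medians over sites of the histone marks have binomial 95% intervals. Genes were matched by symbol or RefSeq synonym (221 of 221). The FPKM filter was a mean of at least 1 over all 24 libraries, and the pseudocount was 1. Rhythms were fitted with limma 3.58.1 (R 4.3.3) as a 24 hr cosine and sine with trended eBayes, which was tested on simulated data. The study's own rhythm method was not used here.

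The motif windows were planned as 300 bp around each site centre. RefSeq promoter windows of 300 bases were used instead, since no genome was used here. Named genes followed a fixed rule: clock genes, the 10 sites highest in CLOCK and in BMAL1, the 5 extremes of each histone mark with at least 20 tags in both libraries, the 5 largest CLOCK changes, all sites where CLOCK was not higher, the 5 highest inputs, the 3 sites on each side of the distance limit, the 6 highest and 6 lowest FPKM ratios, the 5 smallest rhythm p-values per condition, and list members with a site. The other genes called rhythmic, *PER1*, and the genes with tandem E-boxes were named after their values were seen. A gene that this rule names is not reported here. Depth ran from 1.41 to 33.3, in units of 1000000 tags, in ChIP-seq, and the depth of the RNA-seq libraries is unknown. Python 3.11.15, NumPy 2.4.6, pandas 2.3.3, SciPy 1.17.1 and matplotlib 3.10.9 were used.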

Additional observations from a re-analysis of the deposited data

How the results depend on the processing

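With 1 library per antibody and condition, no value above holds the variation between experiments. Subtracting the input's log2 change reversed BMAL1 (-0.051) and H3K9ac (-0.32) and moved CLOCK to 0.59 and H3K4me3 to -0.47. A pseudocount of 5 gave 0.94 for CLOCK, and a minimum of 10 tags per library gave 0.82 for CLOCK (125 sites) and 0.58 for the input. At the 55 sites in both lists, BMAL1 was 0.25, H3K4me3 -0.00 (-0.003) and the input 0.58. At a 1.5-fold threshold, the sites counted as higher were 69 for BMAL1, 26 for H3K9ac, 6 for H3K4me3 and 78 for the input, and by the tag ratio interval they were 33, 5, 6 and 26. Neither the threshold nor the interval was counted over all shared sites, so these counts have no share beside them. At an unadjusted limma p of at most 0.05, rhythmic genes were 15 in control, against 5.11% of all genes, and 29 in 6AN, against 4.75%. With a linear trend over time, rhythmic genes were 13 and 18 at 0.01, with no count over all genes. When time points were left out 1 at a time, there were 7 to 9 rhythmic genes in control, 10 to 16 in 6AN, and a median log2 FPKM ratio of 0.06 to 0.08. Those rhythmic genes were counted among genes with a promoter site only. The cause of these changes was not tested. The count without CT08 was chosen after seeing the data. CACGTG windows of 100 and 1000 bp around the centre were not run, since no genome was used here. No paired analysis was possible because each group had 1 library, so the groups shared fewer than 2 replicate numbers, and the RNA tables, which share 12 CT labels, were normalized separately. Those labels were used only to count time points.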
